A study of Drosophila melanogaster with 6 samples.

Results

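The enzymes and secreted proteins that colour and harden insect cuticle were examined in whole Drosophila melanogaster embryos that lack normal function of sage. 7 genes of dopamine synthesis, pigmentation and sclerotisation made up the group: Pu, ple, Ddc, b, e, y and stw. They were taken as a sign of how far the epidermis had matured. Every probe set whose annotation names one of these genes was used, which gave 8 probe sets for 6 of the genes, out of 18769 probe sets tested. 3 of the 8 belonged to stw. No probe set names b in the annotation used here, so b was not analysed here.

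The series holds 3 arrays of the wild type laboratory strain Oregon R and 3 arrays of age-matched sage mutants, all from embryos of stages 11 to 16 collected and aged at 25 °C. The bHLH protein Sage controls genes in the embryonic salivary gland. Arrays are numbered by the replicate number in their titles, and values are given in that order. Embryos of both groups were passed through a COPAS biosorter before RNA extraction. The labels give the mutants' genotype as sage mutant and name no other allele, so the nature of the lesion, the parental strain and any marker alleles of e or y are not given in the sources used here. Strain background and loss of sage cannot be told apart. The groups share 3 replicate numbers, and nothing states that replicates were separate collections, so the p-values reflect only the spread among these arrays, part or all of which may be technical.

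Insect tanning begins with tyrosine, which tyrosine hydroxylase turns into dopa and dopa decarboxylase turns into dopamine. Dopamine is then oxidised towards black melanin, or joined to beta-alanine or an acetyl group to give tan or colourless sclerotising agents, and laccase in the cuticle oxidises these into cross-linking quinones. In the fly embryo the epidermis lays down cuticle late, while some neurons use the same first enzymes to make dopamine and serotonin. In RNA from whole embryos, fewer cells of a type and less RNA per cell cannot be told apart.

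sage was lower in each mutant array, which bears out the labels. Its log2 signal was 8.21, 8.61 and 7.93 in the wild type arrays and 5.28, 5.44 and 5.12 in the mutant arrays (log2 difference −2.97, SE 0.19, limma adjusted p = 0.00125). Array medians lay between 5.89 and 6.01, and the precision is limited by the number of arrays. The array of wild type replicate 2 was the least like its group, with a mean correlation of 0.977 to its own group against 0.985 to 0.993 for the other 5 arrays. Control transcripts gave less 5′ signal relative to 3′ signal in the mutants, a sign of RNA quality or labelling. Averaged over 5 control pairs, 5′ minus 3′ signal was −1.88, −1.76 and −1.89 in the wild type arrays and −4.35, −3.51 and −3.17 in the mutant arrays. The groups did not overlap, and mutant replicate 1 was the lowest. Added poly(A) control transcripts were also lower in the mutants, by a mean log2 difference of −1.71, and hybridisation controls by −0.83. These control values moved with every comparison given here. 17 control probe sets for synthetic tag sequences, which have no known target in fly RNA, ranged from 3.69 to 5.66 over the 6 arrays, and this range serves as a guide to low signal. The mutant values of sage lay inside it, so the size of its fall is not exact.

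No tanning gene passed the test between sage mutants and wild type. None of the 8 probe sets had a limma adjusted p under 0.05, in either direction, while 4.03% of all probe sets did, 2.10% higher and 1.93% lower in the mutants. These were 394 and 363 probe sets, or 334 and 465 once each array was centred on its median. 3 of the 8, those of Ddc and ple and 1 of stw, had an unadjusted p under 0.05, against 18.7% of all probe sets. The same 3 probe sets had every mutant array above every wild type array, a pattern seen at 10.3% of all probe sets, and none had every mutant array below, against 14.1%. Of these 3, only that of Ddc lay above the range of the tag controls. 7 of the 8 had a difference above 0, as did 43.4% of all. Among these 7 are ple and the dimmer stw probe sets, which lay inside the range of the tag controls on all arrays. After that centring the dimmest stw probe set also lay below 0, at −0.012. The median log2 difference was 0.35 over the 6 genes at their brightest probe set, ple included, beside −0.01 over all 11981 genes represented in that way.

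**Figure D1:**
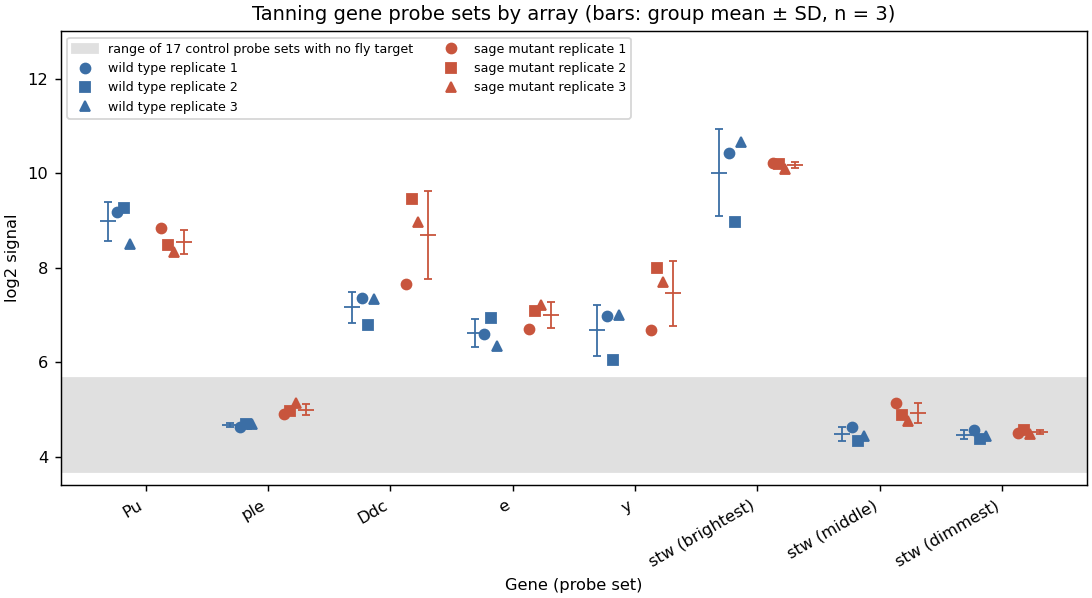
Log2 signal of each tanning gene probe set (horizontal axis) in each of the 6 arrays, with group means ± SD (n = 3) beside the points and the range of 17 tag controls (3.69 to 5.66) shaded. Ddc sits higher in the mutants with a wide spread, ple and the dimmer stw probe sets lie inside the shaded range, and Pu is the only gene with a lower mutant mean.

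Pu (Punch, CG9441, chromosome arm 2R) encodes GTP cyclohydrolase, which starts the synthesis of tetrahydrobiopterin, the cofactor of tyrosine hydroxylase, and also feeds the red pteridine eye pigments. Its log2 signal was 9.18, 9.26 and 8.51 in the wild type arrays and 8.83, 8.48 and 8.34 in the mutant arrays. The groups overlapped, because wild type replicate 3 lay among the mutants. The log2 difference was −0.43 (SE 0.23, 95% interval −0.99 to 0.13, limma adjusted p = 0.399). Each mutant array was below the wild type array of the same replicate number, by 0.35, 0.78 and 0.17 on the log2 scale. Nothing shows that these numbers pair the arrays. Pu was the only one of the 6 measured genes whose difference lay below 0.

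ple (pale, CG10118, arm 3L) encodes tyrosine hydroxylase, the first and usually limiting step of dopamine synthesis. Its single probe set gave 4.64, 4.71 and 4.70 in the wild type arrays and 4.91, 4.96 and 5.13 in the mutant arrays. All 6 values lay inside the range of the tag controls, so neither the level of the ple transcript nor a fold change can be read from them. Within that range the mutant arrays were above the wild type arrays, with a log2 difference of 0.32 (SE 0.10, 95% interval 0.08 to 0.56, limma adjusted p = 0.147). The small size of this difference came with a small spread, an SD of 0.04 in wild type and 0.12 in the mutants. With array weights, which give arrays that stand apart less influence, ple passed (log2 difference 0.38, limma adjusted p = 0.0271). The weights were 3.97, 0.27 and 0.95 for the wild type arrays and 0.84, 0.71 and 1.68 for the mutant arrays. The wild type side of that fit thus rested mostly on replicate 1. Over the whole array 2737 probe sets passed in it, against 757 without weights.

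Ddc (CG10697, arm 2L) encodes dopa decarboxylase, which makes dopamine from dopa and serotonin from its own precursor. It had the widest gap between groups among the tanning genes. Its log2 signal was 7.37, 6.79 and 7.33 in the wild type arrays and 7.65, 9.46 and 8.97 in the mutant arrays. Mutant replicate 1 lay just above the highest wild type array, while the other mutant arrays lay well above both. The means were 7.16 ± 0.32 and 8.69 ± 0.93 (SD, n = 3 each), a 2.88-fold difference with a 95% interval of 1.36 to 6.12. On the log2 scale this was 1.53 (SE 0.45, limma adjusted p = 0.133). Of all probe sets, 98.8% had a smaller difference and 9.83% had a smaller p-value. The mutant arrays spread over 1.81 log2 units. Without mutant replicate 1 the log2 difference was 2.05 (SE 0.24) and Ddc passed (limma adjusted p = 0.0147). In that fit 956 probe sets of the whole array passed, against 757 with all arrays. Ddc also passed with array weights (1.40, limma adjusted p = 0.037), where wild type replicate 1 carried the most weight. Mutant replicate 1 was the mutant array with the least 5′ control signal. With the averaged control difference added to the fit, the log2 difference of Ddc was 3.78 (SE 0.91, limma adjusted p = 0.325), and no probe set of the whole array passed in that fit. The groups did not overlap in the control difference, so this value is an extrapolation and not a corrected size of the Ddc difference.

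e (ebony, CG3331, arm 3R) encodes the synthetase that joins beta-alanine to dopamine, which takes dopamine away from black melanin and towards tan sclerotin. The beta-alanine for it comes largely from b (black), an aspartate decarboxylase that no probe set named here. e had log2 signals of 6.60, 6.93 and 6.35 in the wild type arrays and 6.70, 7.09 and 7.21 in the mutant arrays. The groups overlapped, with mutant replicate 1 below wild type replicate 2. Each mutant array was above the wild type array of the same number, but by 0.10 and 0.16 for numbers 1 and 2 and 0.87 for number 3. The log2 difference was 0.38 (SE 0.20, 95% interval −0.10 to 0.85, limma adjusted p = 0.382).

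y (yellow, CG3757, arm X) encodes a secreted protein needed for black melanin. It stood at 6.98, 6.06 and 7.005 in the wild type arrays and at 6.69, 7.995 and 7.71 in the mutant arrays. Mutant replicate 1 lay below 2 of the 3 wild type arrays, so the groups overlapped. The log2 difference was 0.78 (SE 0.40, 95% interval −0.18 to 1.75, limma adjusted p = 0.372). Without mutant replicate 1 it was 1.17 (limma adjusted p = 0.115). With the control term it was 2.38 (SE 0.97, limma adjusted p = 0.593), an extrapolation as for Ddc.

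stw (straw, CG42345, arm 2R) encodes laccase 2, the oxidase that cross-links and colours the cuticle from outside the cell. Its brightest probe set gave 10.42, 8.96 and 10.66 in the wild type arrays and 10.22, 10.20 and 10.09 in the mutant arrays. Wild type replicate 2 was far below the other 5 arrays, and the other wild type arrays were above all mutant arrays. The log2 difference was 0.16 (SE 0.42, 95% interval −0.85 to 1.17, limma adjusted p = 0.894). Without wild type replicate 2 its sign turned, to −0.36 (SE 0.12, limma adjusted p = 0.134). With array weights it was −0.23 (limma adjusted p = 0.524).

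The 2 dimmer stw probe sets lay inside the range of the tag controls on all arrays. The middle one gave 4.63, 4.34 and 4.45 in the wild type arrays and 5.15, 4.88 and 4.75 in the mutant arrays, with no overlap (log2 difference 0.45, SE 0.14, limma adjusted p = 0.145). The dimmest ran from 4.38 to 4.57 in wild type and from 4.49 to 4.57 in the mutants, where the groups overlapped (log2 difference 0.06, SE 0.09, limma adjusted p = 0.828). The 3 probe sets of stw thus differed in size and in which arrays were high. RefSeq lists 5 transcripts for stw, 3 each for ple, Ddc and Pu, and 1 each for e and y, and which transcripts each probe set detects was not analysed here.

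**Figure D2:**
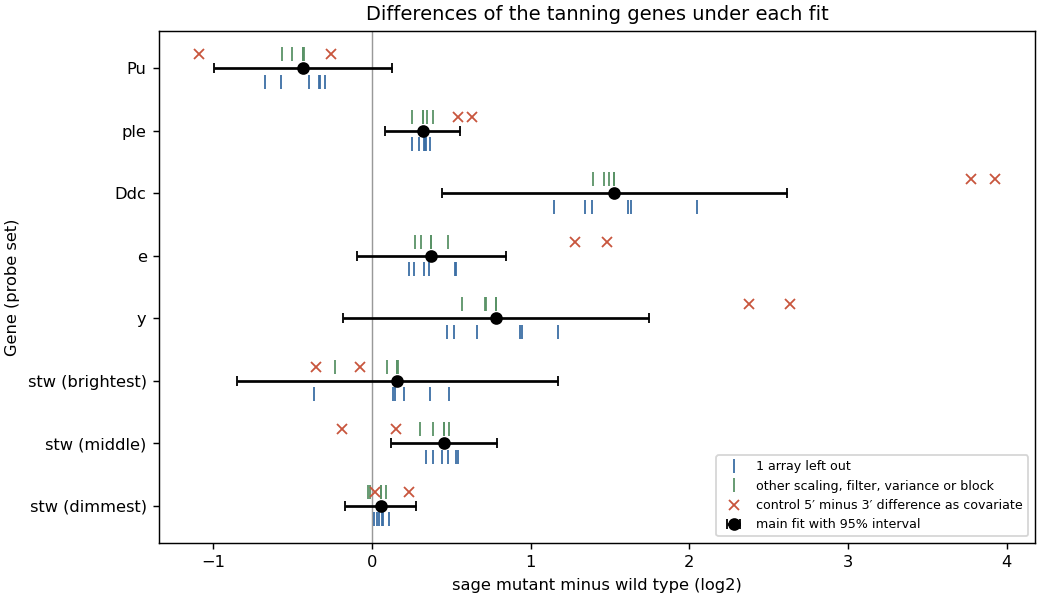
Log2 difference, sage mutant minus wild type, for each tanning gene probe set. Black points carry 95% intervals from the limma fit, blue ticks leave out 1 array, green ticks change the scaling, filter, variance model, weights or block, and red crosses add the 5′ minus 3′ signal of the controls to the fit. Ddc stays above 0 throughout, between 1.14 and 3.93, and the brightest stw probe set falls on both sides of 0.

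The genes did not share one profile across the arrays. Ddc and y were the most alike, with a Pearson correlation of 0.94 over the 6 arrays and also 0.94 after each group's mean was subtracted. Both were lowest among wild type arrays in replicate 2 and lowest among mutant arrays in replicate 1. The brightest stw probe set shared the low value in wild type replicate 2 but was flat over the mutants, and its correlation with Ddc was 0.29. e ran against stw, with a correlation of −0.47, or −0.74 after group means were subtracted. Pu was negatively correlated with each of the other 5 genes, from −0.80 with y to −0.27 with e. After group means were subtracted its correlation with e was 0.19, and those with the other genes stayed below 0. These correlations describe 6 arrays that share RNA quality and scaling, and are no test.

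**Figure D3:**
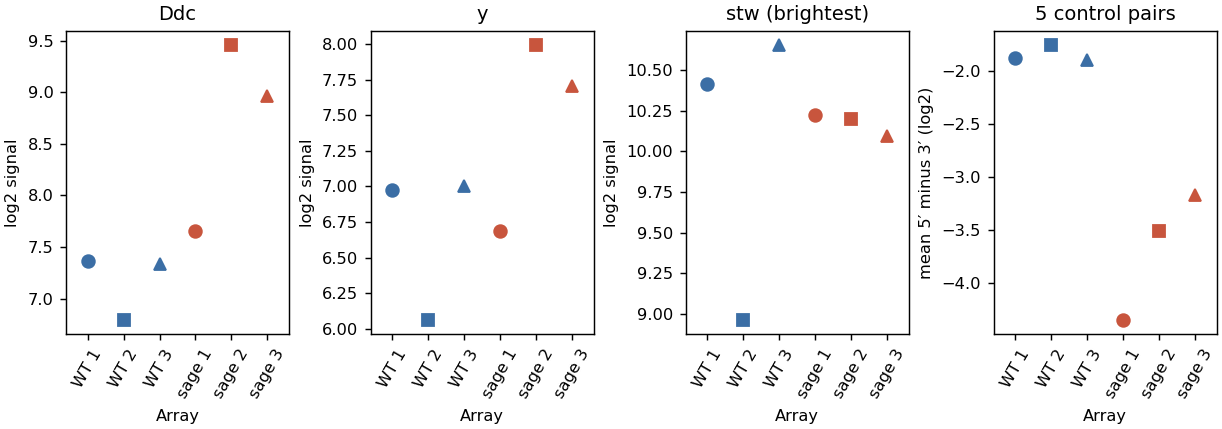
Log2 signal of Ddc, y and the brightest stw probe set in each array (WT, wild type; sage, sage mutant; numbers are replicates), and the 5′ minus 3′ signal averaged over 5 control pairs in the same arrays. Ddc and y are lowest of their group in wild type replicate 2 and in mutant replicate 1, where Ddc still lies above all wild type arrays. The brightest stw probe set is low in wild type replicate 2 alone, and the control difference is lowest in mutant replicate 1.

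For each gene the 3 most similar profiles were sought among single-gene probe sets with a mean of at least 6, by Pearson correlation of log2 signal over the 6 arrays. Ddc was closest to CG3119, CG9269 and CG13058, with correlations of 0.997 to 0.999. y was closest to Cpr65Ec, a cuticle protein gene of the Rebers and Riddiford family, and to CG13041 and CG1441, with correlations of 0.996 to 0.997. Cpr65Ec stood at 7.29 in wild type and 8.98 in the mutants, a log2 difference of 1.69 (limma adjusted p = 0.294). e was closest to Tg, the transglutaminase gene, and to CG12869 and CG14321 (0.981 to 0.988), and ple to Mtmr6, bun and CG30158 (0.988 to 0.990). Pu was closest to eIF2Bgamma, ZnT41F and E(spl)m3-HLH (0.980 to 0.983), and stw to CG9380, CG7058 and CG1674 (0.992 to 0.999). These values rest on only 6 arrays and were the highest of many candidates. 172 of 8255 candidates were above 0.95 for Ddc and 21 for Pu, and likeness says nothing of shared function.

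Genes next to the tanning genes on the chromosome were read for comparison. Of the 28 nearest protein-coding genes, 2 on each side, 24 were measured, with a median log2 difference of 0.00 and a range from −0.91 to 0.71. 2 of them passed limma, against 4.98% of all genes at their brightest probe set. SP1173 near ple fell by 0.65 and Phb1, a prohibitin gene beside Ddc, fell by 0.82 on the log2 scale (limma adjusted p = 0.038 and 0.0314). Both lost the call with the replicate number as a block (limma adjusted p = 0.0612 and 0.0513) and when wild type array 1 or 3 or any 1 mutant array was left out. SP1173 also lost it after quantile normalization (0.0506), when probe sets below the median level were left out (0.0645) and under a robust variance trend (0.0728). amd, a close relative of Ddc that lies near it and is needed for larval cuticle, stood at 9.90, 10.20 and 10.33 in the wild type arrays and 10.68, 11.03 and 10.83 in the mutant arrays. Its mutant arrays were all above the wild type arrays, with a log2 difference of 0.71 (SE 0.15, limma adjusted p = 0.0564), and it passed with array weights (limma adjusted p = 0.0098).

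Further genes of the pathway and of the cells that use it were described by 11 lists, each gene by its brightest probe set. 69 of 78 listed genes were measured, and 6 rose and 3 fell, against 2.88% higher and 2.10% lower among all genes. The 3 that fell were all salivary gland markers. With the control term, none of the 69 passed.

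Among genes of tetrahydrobiopterin and tyrosine supply, which like Pu serve the tyrosine hydroxylase step, none of 5 measured members passed. An unadjusted p under 0.05 was seen for 3 of the 5, against 22.5% of all genes. Sptr, sepiapterin reductase, had a log2 difference of 0.64 (SE 0.19, limma adjusted p = 0.143). Catsup, a negative regulator of tyrosine hydroxylase activity, had −0.35 (SE 0.12, limma adjusted p = 0.18). The median of the list was 0.06.

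Of 13 other amine-handling enzymes, 2 rose and none fell, with a list median of 0.34. AANATL2, a relative of the N-acetyltransferase that acetylates dopamine, stood at 5.94, 6.27 and 6.20 in the wild type arrays and 7.10, 8.07 and 7.79 in the mutant arrays. All mutant arrays were above wild type, a 2.86-fold rise (log2 difference 1.51, SE 0.25, limma adjusted p = 0.0286). Hdc, histidine decarboxylase of histaminergic neurons, rose from 4.90 ± 0.24 to 5.64 ± 0.08 (SD, n = 3 each, limma adjusted p = 0.0396), but its wild type values and 2 of its 3 mutant values lay inside the range of the tag controls. Hdc lost the call with the replicate block (limma adjusted p = 0.0645). speck, the main dopamine N-acetyltransferase, and t (tan), which splits beta-alanyl dopamine back to dopamine, had log2 differences of 0.56 and −0.48 (limma adjusted p = 0.213 and 0.442). Gad1, glutamate decarboxylase, had 1.21 (SE 0.37, limma adjusted p = 0.14). AANATL2 lost its call after quantile normalization (limma adjusted p = 0.0506) and when any 1 of wild type arrays 1 and 3 and mutant arrays 2 and 3 was left out, and Hdc without any 1 array other than wild type replicate 1.

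The yellow family, whose members are secreted proteins or enzymes related to y, showed no common direction. Of 12 measured relatives of y, 1 rose and none fell, 6 had a difference above 0, and the list median was 0.02. yellow-b stood at 9.15, 9.43 and 9.38 in the wild type arrays and 10.12, 10.09 and 9.98 in the mutant arrays. It rose 1.67-fold (limma adjusted p = 0.0221) with no overlap between the groups. The differences of the others ran from −0.74 in yellow-h to 0.73 in yellow-d2. yellow-b lost the call with the replicate block (limma adjusted p = 0.05003) and when any 1 of wild type arrays 1 and 3 and mutant arrays 2 and 3 was left out.

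None of the 3 genes that release beta-alanine from uracil, a further supply for e, passed. pyd3, beta-ureidopropionase, had a log2 difference of 0.63 (SE 0.17, limma adjusted p = 0.11) with all mutant arrays above wild type. It passed without wild type replicate 2 (limma adjusted p = 0.0363), a fit in which 1111 probe sets of the whole array passed, against 757. The brightest of 5 CRMP probe sets had −0.25 (limma adjusted p = 0.542). The next brightest had −0.94 (SE 0.26, limma adjusted p = 0.112), with all mutant arrays below wild type, and the others ran from −0.42 to 0.04. Beside stw, 6 other laccase and prophenoloxidase genes were measured and 1 rose. This was Mco3, a multicopper oxidase gene, at 6.33, 6.50 and 6.54 in the wild type arrays and 7.39, 7.08 and 7.05 in the mutant arrays (1.64-fold, limma adjusted p = 0.036). Its mutant arrays were all above wild type, but the call was lost in each fit without 1 array other than wild type replicate 2, and with the replicate block (limma adjusted p = 0.0752). It was also lost with all arrays after quantile normalization (0.0762), after centring (0.0572), when probe sets below the median level were left out (0.0535) and under a robust variance trend (0.0525). With the control term its log2 difference was 0.18 in place of 0.71. Mco1, a relative of stw, had a log2 difference of 0.90 (SE 0.27, limma adjusted p = 0.136), and PPO1 and PPO2, the prophenoloxidases of blood crystal cells, had 0.18 and −0.03.

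Of the hormones and receptors that time ecdysis and tanning, 2 of 6 measured members rose, none fell, and the list median was 0.80. CCAP, the crustacean cardioactive peptide, stood at 5.53, 5.35 and 5.22 in the wild type arrays and 9.87, 9.54 and 9.58 in the mutant arrays (limma adjusted p = 9.13e-05). Its wild type values lay inside the range of the tag controls, so no fold is given. It was the only one of the 6 risen list genes that passed in every fit without 1 array. ETH, the ecdysis triggering hormone, stood at 6.57, 6.85 and 6.64 in the wild type arrays and 7.39, 8.11 and 8.03 in the mutant arrays. It rose 2.23-fold (limma adjusted p = 0.0351), and lost the call after quantile normalization (0.0635) and when any 1 of wild type arrays 1 and 3 and mutant arrays 2 and 3 was left out. Burs, a subunit of the tanning hormone bursicon, had a log2 difference of 0.65 (SE 0.22, limma adjusted p = 0.178), and Eh, eclosion hormone, 0.95 (SE 0.25, limma adjusted p = 0.0997). Eh stood at 5.23, 5.67 and 5.42 in the wild type arrays. Replicates 1 and 3 of these lay inside the range of the tag controls, so the size of its difference is not exact. Eh passed with the replicate block (limma adjusted p = 0.0414), and both passed without mutant replicate 1 (0.0249 for Burs and 0.0429 for Eh). Without that array more probe sets passed over the whole array, 956 against 757. rk, the bursicon receptor, lay inside the range of the tag controls on all arrays. 5 of the 6 genes had all mutant arrays above wild type, against 12.9% of all genes.

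**Figure D4:**
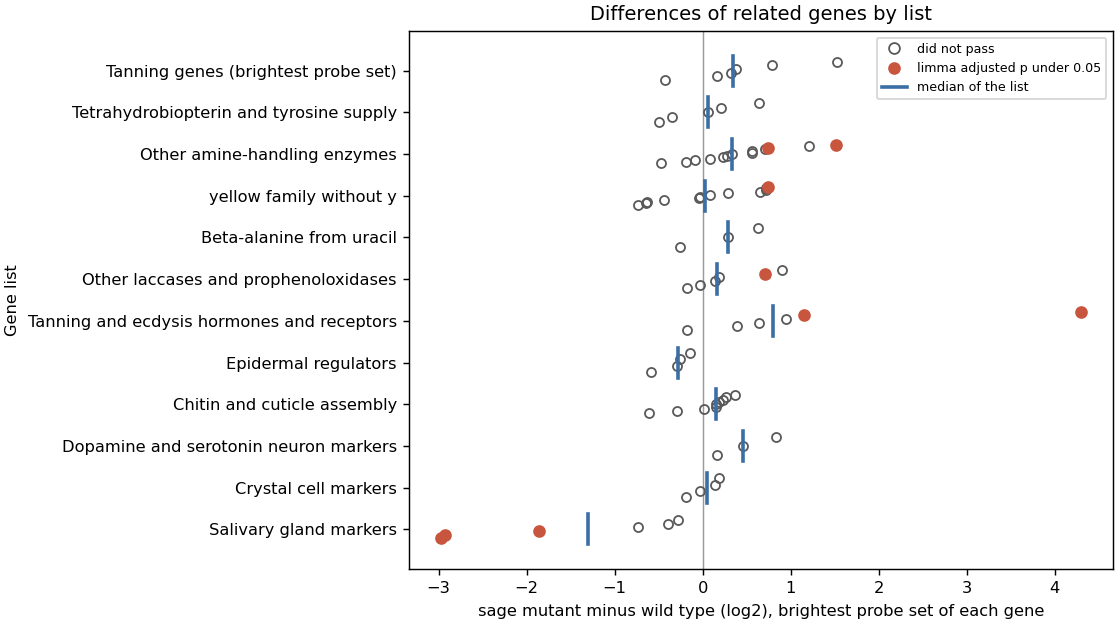
Log2 difference, sage mutant minus wild type, of each measured gene at its brightest probe set, by list, with filled points for limma adjusted p under 0.05 and a bar at each list's median. The tanning genes have no filled point and a median of 0.35, the hormone list has 2 with a median of 0.80, and the salivary gland markers lie below 0.

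Markers of the cells that use these enzymes were read beside them. None of 4 measured epidermal regulators passed, and their differences all lay below 0, with a median of −0.28. Of all probe sets, 43.4% had a difference above 0. Which cells of the whole embryo gave the signal of these regulators was not tested. grh, a factor of epidermal barrier formation known to act on ple and Ddc, had −0.26 (limma adjusted p = 0.53), and D had −0.59 (limma adjusted p = 0.212). A dimmer grh probe set had −0.41 (SE 0.11, limma adjusted p = 0.1005), with all mutant arrays below wild type. None of 9 genes of chitin and cuticle assembly passed, with a median of 0.15 and wild type means between 9.52 and 12.89, all above the tag controls. serp, a chitin deacetylase, had 0.37 (limma adjusted p = 0.149), and obst-A, a chitin-binding protein, −0.61 (limma adjusted p = 0.316), which passed without wild type replicate 2 at −0.95 (limma adjusted p = 0.013). The mean level of the epidermal regulators was 10.03 to 10.49 in wild type arrays and 9.52 to 10.24 in mutant arrays, and that of the chitin and cuticle genes 11.07 to 11.28 and 11.23 to 11.27.

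None of 3 measured dopamine and serotonin neuron markers passed. SerT, the serotonin transporter, had a log2 difference of 0.83 (SE 0.17, limma adjusted p = 0.0533) with all mutant arrays above wild type, and passed without mutant replicate 1 (limma adjusted p = 0.0142). DAT, the dopamine transporter, had 0.46 (limma adjusted p = 0.182). Their mean level, with Vmat, was 6.13 to 6.48 in wild type and 6.38, 6.98 and 7.08 in the mutant arrays. Mutant replicate 1 was the lowest mutant array, as for Ddc and y. The same held for the mean levels of the amine-handling, beta-alanine and hormone lists, but not for the other lists. This order is thus not particular to the neuron markers. Vmat entered by its brightest probe set, which had 0.17 with the groups overlapping. A dimmer Vmat probe set had 0.58 (SE 0.12, limma adjusted p = 0.0533) with all mutant arrays above wild type, and the groups overlapped at its others. The part of these neurons in the Ddc difference was not tested. None of 4 crystal cell markers passed (median 0.05). lz, a factor that specifies these cells, was inside the range of the tag controls, while PPO1 and PPO2 had wild type means of 11.02 and 10.83. Of 6 salivary gland markers, sage, PH4alphaSG1 and PH4alphaSG2 fell, the last 2 being prolyl hydroxylase subunits of the gland with log2 differences of −2.92 and −1.86. This list is not independent of what is already known of these arrays. PH4alphaSG2 lost its call with the replicate block (limma adjusted p = 0.0539) and when wild type array 1 or mutant array 2 or 3 was left out. 6 of 10 pip probe sets fell, all of them dimmer than the brightest, by 1.53 to 3.18 on the log2 scale.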

How the data were processed

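RMA and Partek are named in the submitters' processing notes, without versions. Per array, the deposited table gives each probe set a single log2 value. The base was taken from RMA's default and the range of the values. No genome build is named, so no coordinates are given, and no sequence table was used here.

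Probe sets were named from the platform annotation, with symbols updated by gene ID from RefSeq (Release 6 plus ISO1 MT). Of 18952 rows, 183 control probe sets were left out of the tests. limma 3.58.1 in R 4.3.3 was fitted to the other 18769 probe sets with a single term for group, p-values were adjusted over all of them by Benjamini and Hochberg's method with a threshold of 0.05, and 95% intervals came from the moderated standard error. The exact permutation test of 3 against 3 arrays cannot go below 0.10 and was not used. A gene was represented by its probe set with the highest mean. Figures used matplotlib.

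The genes and lists were chosen with earlier results of these data known. Named genes were all tanning genes, every list gene past the threshold or otherwise the 2 with the smallest p, dimmer probe sets past it, and the 3 closest profiles per gene. amd, Gad1, speck, t, Mco1, PPO2, Burs, Eh, rk, Vmat, lz, yellow-d2, yellow-h and the neighbours were picked with their values in view. So were the dimmer probe sets given for CRMP, grh and Vmat.

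Deviations from group means correlated at 0.17, 0.28 and 0.31 between arrays with the same replicate number in their titles, and between −0.30 and 0.14 otherwise. That check cannot show that the numbers pair the arrays, because deviations within a group are tied to each other and 0.17 is close to 0.14. A fit with the number as a block was run beside the unpaired one. Alternatives were other scalings, filters on dim probe sets, variance models, array weights, this block, 1 probe set per gene, a term for the 5′ minus 3′ signal of the controls, and leaving out each array.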

Additional observations from a re-analysis of the deposited data

How the results depend on the processing

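No tanning gene probe set passed limma with all arrays in any setting but array weights, where 2 of the 8 did, ple (log2 difference 0.38) and Ddc (1.40). When 1 array was left out, 0 to 1 passed, Ddc without mutant replicate 1, and its log2 difference ran from 1.14 to 2.05. With the replicate block none of the 8 passed (limma adjusted p = 0.09 for the middle stw probe set, 0.156 for ple, 0.16 for Ddc and 0.2005 for Pu). The sign turned only for stw. Its brightest probe set had −0.23 with array weights, −0.35 with the 5′ minus 3′ signal of the controls as a covariate, −0.076 with that covariate and the replicate block, and −0.36 to 0.48 when 1 array was left out. The middle one had −0.19 with the covariate, and the dimmest −0.012 after centring and −0.026 with array weights. The cause was not tested. ple and the dimmer stw probe sets gave no value under the filters on dim probe sets.

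Over the whole array 757 probe sets passed, 2737 with array weights, 0 with the covariate, with or without the block, and 134 to 1111 when 1 array was left out. After quantile normalization 330 were higher and 389 lower, and after centring 334 and 465, against 394 and 363. Of the list genes, 9 passed, 27 with array weights, 0 with the covariate, with or without the block, and 3 to 13 when 1 array was left out, with 7 under the block and 6, 3 higher and 3 lower, after quantile normalization, against 6 and 3. With the covariate PPO1 turned to −0.40, and with the covariate and the block PPO1 had −0.36, Mco3 −0.17, grh 0.23, peb 0.18 and t 0.063. The groups do not overlap in this covariate. Detection above background was not tested, and 3 arrays a group limit what can be called.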
